A study of Homo sapiens with 12 samples.

Results

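The 10 genes described here encode receptors that guide myeloid cells: the chemokine receptors CXCR4, CXCR2, CCR1, CCR2 and CX3CR1, the formyl peptide receptors FPR1 and FPR2, the complement anaphylatoxin receptors C5AR1 and C3AR1, and the leukotriene B4 receptor LTB4R. They were taken by gene symbol from a count table of 19504 genes, in which all 10 had a row. The RNA came from 2 human acute myeloid leukaemia cell lines, MV4-11 and OCI-AML3, sequenced from the 3' ends of transcripts. As background, MV4-11 cells have a FLT3 gene activated by an internal tandem duplication (FLT3-ITD), whereas OCI-AML3 cells lack it and have mutated NPM1. The 4 groups were MV4-11 with DMSO (the vehicle), MV4-11 with 5 nM AC220 (quizartinib, which blocks the FLT3 kinase), OCI-AML3 with DMSO and OCI-AML3 with 5 nM AC220, each harvested at 24 h with 3 libraries. Nothing in the labels says whether the libraries of a group came from separate cultures, and p-values reflect only how these libraries scatter, a scatter that may be technical. With 1 line of each genotype, a difference between the lines cannot be told apart from a difference due to FLT3 status.

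These receptors sit in the plasma membrane, cross it several times and signal through heterotrimeric G proteins, mostly of the Gi class, to phospholipase C-beta, phosphoinositide 3-kinase gamma and the Rac GTPases that steer cell movement. CXCR4 binds CXCL12, which stromal cells of the bone marrow make, and is known for holding haematopoietic stem cells and leukaemic blasts in the marrow. CXCR2 directs neutrophils towards CXCL8 and related chemokines, CCR2 brings monocytes out of the marrow towards CCL2, CX3CR1 marks patrolling monocytes, and the formyl peptide, complement and leukotriene receptors read products of bacteria, complement activation and inflamed tissue.

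The promoters of the 5 chemokine receptors are shown because 4 of them rose together after AC220 in MV4-11 while CCR1 fell. Each line gives the 250 bases before the first listed transcription start, from RefSeq on GRCh38.p14, read 5′ to 3′ on the gene's own strand. The windows are chr2:136118150-136118399 (minus strand) for CXCR4, chr2:218125778-218126027 (plus strand) for CXCR2, chr3:46353861-46354110 (plus strand) for CCR2, chr3:39281736-39281985 (minus strand) for CX3CR1 and chr3:46208314-46208563 (minus strand) for CCR1. Capitals mark matches, on either strand, to any of 6 short motifs: TATAAA (the TATA box), GTAAACA (FOXO factors), TTCNNNGAA (STAT factors), CACGTG (the E box), GGAAGT (ETS factors) and CACCC (KLF factors).
CXCR4: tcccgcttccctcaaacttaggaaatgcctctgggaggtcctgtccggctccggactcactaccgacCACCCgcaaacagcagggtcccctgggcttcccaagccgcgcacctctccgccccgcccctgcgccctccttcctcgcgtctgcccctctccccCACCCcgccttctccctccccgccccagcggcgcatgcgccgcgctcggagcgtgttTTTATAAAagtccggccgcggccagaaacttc
CXCR2: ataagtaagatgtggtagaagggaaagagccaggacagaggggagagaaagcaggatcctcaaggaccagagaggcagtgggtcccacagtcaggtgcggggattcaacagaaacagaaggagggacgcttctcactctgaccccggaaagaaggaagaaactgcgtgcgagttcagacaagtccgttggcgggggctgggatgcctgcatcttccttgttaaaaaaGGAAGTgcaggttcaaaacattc
CCR2: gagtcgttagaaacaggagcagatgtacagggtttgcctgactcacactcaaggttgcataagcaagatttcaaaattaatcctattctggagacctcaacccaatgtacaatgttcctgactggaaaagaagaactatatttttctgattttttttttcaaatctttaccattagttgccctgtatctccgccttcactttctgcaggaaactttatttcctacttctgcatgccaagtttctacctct
CX3CR1: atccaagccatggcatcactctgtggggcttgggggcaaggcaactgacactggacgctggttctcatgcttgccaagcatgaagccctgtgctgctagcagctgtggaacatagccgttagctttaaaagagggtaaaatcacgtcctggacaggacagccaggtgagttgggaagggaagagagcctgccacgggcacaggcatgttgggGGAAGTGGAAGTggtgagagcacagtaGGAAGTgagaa
CCR1: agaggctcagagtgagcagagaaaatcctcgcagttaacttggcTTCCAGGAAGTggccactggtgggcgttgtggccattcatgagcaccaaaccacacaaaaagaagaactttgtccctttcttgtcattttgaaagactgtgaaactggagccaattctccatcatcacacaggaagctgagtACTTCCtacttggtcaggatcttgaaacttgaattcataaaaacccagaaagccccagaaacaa

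In the CXCR4 window the matches to TATAAA overlap, at 32 and 30 bases before the start, and 2 CACCC stand farther away at 183 and 89 bases. CXCR2 held 1 GGAAGT, 23 bases before its start, and CX3CR1 held 3, at 38, 32 and 11 bases, of which the first pair adjoin. CCR1 held the string TTCCAGGAA, a match to the STAT motif, at 206 bases, overlapping a GGAAGT at 201, and another match on the other strand at 64. CCR2 held none of the 6 motifs. Over all 10 receptors, TATAAA occurred in 2, GGAAGT in 4, TTCNNNGAA in 2, CACCC in 3 and GTAAACA and CACGTG in 0. Among 27305 RefSeq promoters of the same length the shares were 11.13% for TATAAA, 19.92% for GGAAGT, 6.775% for TTCNNNGAA, 53.72% for CACCC, 2.977% for GTAAACA and 6.49% for CACGTG. A match describes the letters of this window and is not a measured binding site, and no motif was found in all 4 promoters of the receptors that rose.

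Levels are given in CPM, a library's counts of a gene relative to its total count, scaled between libraries by TMM, a factor that sets the bulk of genes equal. Totals ran from 10877198 to 16918761 counts per library, and a gene with at most 3 counts over the libraries of a group is taken as at the floor there. MV4-11 AC220 replicate 1 differed most from the other libraries of its group, with chi-square per degree of freedom of 9.56 and 10.6 where all pairs ran from 2.79 upwards. Without it the calls of CXCR4, CXCR2, CCR1, CCR2 and CX3CR1 in MV4-11 held, and that of C3AR1 was lost. Myeloid markers were present in both lines, with a summed level of 462 to 490.0 CPM in MV4-11 DMSO, 786 to 821 in MV4-11 AC220, 752 to 769 in OCI-AML3 DMSO and 772 to 834 in OCI-AML3 AC220. ANPEP, which encodes CD13, was near absent from MV4-11, with 0, 4 and 0 counts under DMSO and 0 in all AC220 libraries. Of the 10 myeloid markers, 7 rose and 0 fell with AC220 in MV4-11, where 31.5% of all tested genes rose and 26.9% fell. The part of these markers in the receptor results was not tested. T and NK cell markers summed to at most 1.09 CPM in any library, and erythroid and megakaryocyte markers to at most 2.79 CPM. Markers of epithelial and stromal cells summed to 11.1 to 11.4 CPM in MV4-11 DMSO, 13.6 to 21.3 in MV4-11 AC220, 3.65 to 5.71 in OCI-AML3 DMSO and 5.59 to 8.77 in OCI-AML3 AC220. KRT8 made most of the MV4-11 sums, with means of 10.6 CPM under DMSO and 15.9 CPM under AC220. COL1A2 made most of the OCI-AML3 sums, with means of 4.35 and 6.89 CPM, and EPCAM and KRT19 had 0 counts in every library. The part of these markers was not tested either.

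**Figure D1:**
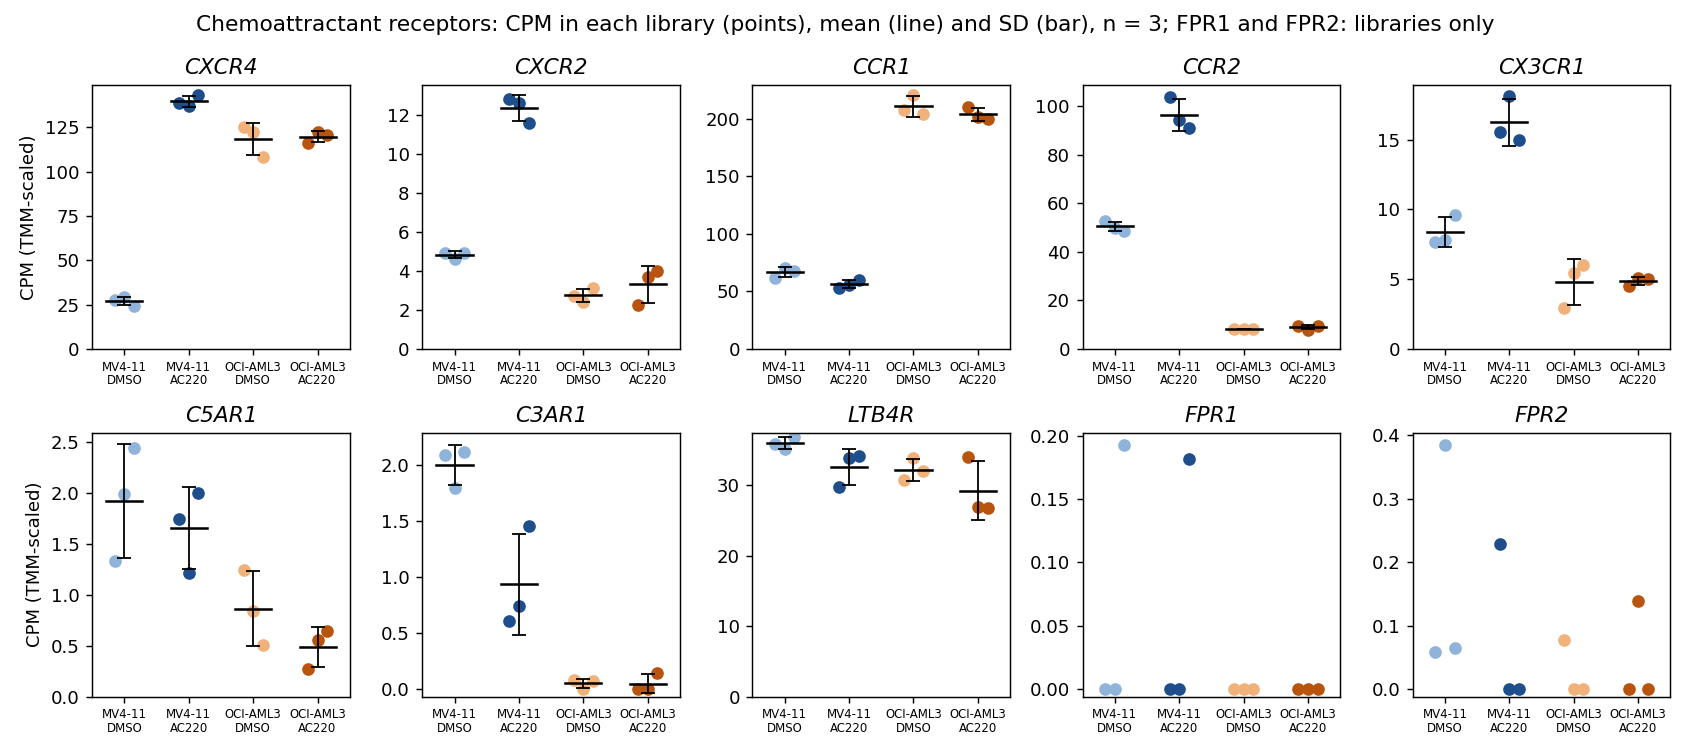
Level of each receptor (CPM, linear axes from 0) in the 12 libraries by group, with points for libraries, a line for the mean and a bar for the SD (n = 3); for FPR1 and FPR2, with few counts, only libraries are drawn. CXCR4 stands at 24.3 to 29.1 CPM in MV4-11 DMSO and at 108 to 143 CPM in the other groups, and CCR2 and CCR1 separate the lines in opposite directions.

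The first question was how inhibition of FLT3 moved the receptors in the line with the duplication. In MV4-11, AC220 raised CXCR4 by 5.16-fold, CXCR2 by 2.56-fold, CX3CR1 by 1.94-fold and CCR2 by 1.91-fold, and lowered CCR1 by 1.18-fold. C3AR1 fell from a low level, C5AR1 and LTB4R did not pass the test, and FPR1 and FPR2 had too few counts to be tested. None of the 8 tested receptors passed the test in OCI-AML3 under the same exposure, where C3AR1 had only 2 counts in each group. Changes in a receptor's RNA per cell and in the share of cells that make it cannot be told apart in these bulk libraries.

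CXCR4 had the largest fitted change of the 8 tested receptors. In MV4-11 DMSO its level was 27.7, 29.1 and 24.3 CPM in replicates 1 to 3 (27.03 ± 2.47, SD, n = 3), and in MV4-11 AC220 it was 139, 137 and 143 CPM (139.6 ± 2.99, SD, n = 3). Every treated library lay far above every control library. The log2 fold change was 2.37 (SE 0.0799, 95% interval 2.20 to 2.53, adjusted p = 1.47e-20, edgeR quasi-likelihood, Benjamini-Hochberg over 12392 genes, the source of every adjusted p below unless another tool is named). Of those 12392 genes, 245 had a larger rise.

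In OCI-AML3, CXCR4 was at 125, 123 and 108 CPM under DMSO (118.6 ± 9.0, SD, n = 3) and at 116, 122 and 120.4 CPM under AC220 (119.6 ± 3.14, SD, n = 3). These groups overlapped, with a log2 fold change of 0.01 (95% interval -0.14 to 0.16, adjusted p = 0.951). The AC220 effect was larger in MV4-11 than in OCI-AML3 by 2.35 on the log2 scale (SE 0.108, adjusted p = 5.24e-17). In order of level, MV4-11 AC220 came first, OCI-AML3 AC220 and OCI-AML3 DMSO followed without differing beyond their spread, and MV4-11 DMSO was far below. Untreated MV4-11 cells thus held 4.38-fold less CXCR4 RNA than untreated OCI-AML3 cells (log2 -2.13, SE 0.0796, adjusted p = 9.36e-20). Under AC220 the order turned, and CXCR4 was higher in MV4-11 by 0.22 on the log2 scale (SE 0.0732, 1.17-fold, adjusted p = 0.00744).

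CXCR2, the receptor for CXCL8 and the CXCL1 group of neutrophil chemokines, was at 4.93, 4.62 and 4.95 CPM in MV4-11 DMSO (4.83 ± 0.186, SD, n = 3) and at 12.8, 12.7 and 11.6 CPM in MV4-11 AC220 (12.4 ± 0.655, SD, n = 3). The groups did not overlap, and CXCR2 rose by 1.35 on the log2 scale (SE 0.185, adjusted p = 3.24e-07). In OCI-AML3 it was at 2.72, 2.43 and 3.11 CPM under DMSO and at 2.26, 3.68 and 4.03 CPM under AC220, where the groups overlapped (log2 0.29, 95% interval -0.18 to 0.76, adjusted p = 0.519). The effect was larger in MV4-11 by 1.07 on the log2 scale (SE 0.297, adjusted p = 0.00395). Its neighbour CXCR1, which also binds CXCL8, had 0 counts in every library.

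CCR2, the CCL2 receptor of classical monocytes, was at 52.6, 50.05 and 48.8 CPM in MV4-11 DMSO (50.5 ± 1.94, SD, n = 3) and at 104, 94.4 and 91.1 CPM in MV4-11 AC220 (96.5 ± 6.75, SD, n = 3). No control library reached a treated one, and CCR2 rose by 0.94 on the log2 scale (SE 0.0828, adjusted p = 7.15e-11). In OCI-AML3 the gene stood much lower, at 8.24, 8.36 and 8.17 CPM under DMSO and at 9.47, 7.98 and 9.27 CPM under AC220, with overlapping groups (log2 0.11, 95% interval -0.14 to 0.35, adjusted p = 0.677). The AC220 effects differed between the lines by 0.83 on the log2 scale (SE 0.145, adjusted p = 2.49e-05).

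CX3CR1, the receptor for membrane-bound fractalkine, was at 7.66, 7.83 and 9.58 CPM in MV4-11 DMSO (8.36 ± 1.07, SD, n = 3) and at 15.6, 18.2 and 15 CPM in MV4-11 AC220 (16.2 ± 1.68, SD, n = 3). Again all treated libraries were above all controls (log2 0.96, SE 0.176, adjusted p = 2.94e-05). The OCI-AML3 libraries held 2.95, 5.47 and 6.0 CPM under DMSO and 4.51, 5.07 and 5.03 CPM under AC220, with replicate 1 of the DMSO group the lowest of all 12 (log2 0.02, 95% interval -0.42 to 0.45, adjusted p = 0.984). The difference between the lines' effects was 0.94 on the log2 scale (SE 0.275, adjusted p = 0.00590).

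CCR1, a receptor for CCL3, CCL5 and CCL23, moved the other way in MV4-11. Its level was 61.5, 69.9 and 68.0 CPM under DMSO (66.5 ± 4.44, SD, n = 3) and 53.2, 55.9 and 59.8 CPM under AC220 (56.3 ± 3.35, SD, n = 3). The groups lay close but did not overlap, and CCR1 fell by 0.24 on the log2 scale (SE 0.0725, 95% interval -0.39 to -0.09, adjusted p = 0.00572). In OCI-AML3 it was at 207, 221 and 204 CPM under DMSO and 210.1, 201 and 200.1 CPM under AC220 (log2 -0.05, 95% interval -0.18 to 0.09, adjusted p = 0.751). The lines' effects on CCR1 were not shown to differ (log2 -0.19, 95% interval -0.39 to 0.01, adjusted p = 0.112), although leaving out MV4-11 AC220 replicate 3 brought the difference past the threshold (adjusted p = 0.0491, edgeR). CCR1 and CCR2 are adjacent protein-coding genes on chromosome 3 in the GENCODE annotation, and AC220 moved them in opposite directions in MV4-11. CCR1 also overlaps CCR3 on the other strand, which was at 0.979 ± 0.205 CPM in MV4-11 DMSO (SD, n = 3). Whether the counting used strand is not given in the sources used here.

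Both receptors for complement anaphylatoxins were low. C5AR1, which binds C5a, was at 1.33, 1.99 and 2.44 CPM in MV4-11 DMSO and at 1.75, 1.21 and 2.00 CPM in MV4-11 AC220, with overlapping groups (log2 -0.21, 95% interval -0.97 to 0.55, adjusted p = 0.656). In OCI-AML3 it was at 1.24, 0.836 and 0.506 CPM under DMSO and at 0.271, 0.555 and 0.647 CPM under AC220, also overlapping (log2 -0.75, 95% interval -1.79 to 0.29, adjusted p = 0.427). C5AR1 had 20 to 92 counts per group, which left these intervals wide.

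C3AR1, which binds C3a, was at 2.09, 1.80 and 2.12 CPM in MV4-11 DMSO (2.00 ± 0.179, SD, n = 3) and at 0.608, 0.745 and 1.45 CPM in MV4-11 AC220 (0.935 ± 0.454, SD, n = 3). It fell by 1.11 on the log2 scale (SE 0.429, adjusted p = 0.0278), on 97 and 32 counts. The call was lost with DESeq2 (adjusted p = 0.0654) and in edgeR without MV4-11 DMSO replicate 1 (adjusted p = 0.0724) or replicate 3 (adjusted p = 0.0755) and without MV4-11 AC220 replicate 1 (adjusted p = 0.130) or replicate 2 (adjusted p = 0.0889). In OCI-AML3 the gene had 2 counts over the DMSO group and 2 over the AC220 group, at the floor, so no fold is given there. C3AR1 passed the filter on low counts through MV4-11 DMSO, where it is high.

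LTB4R, the high-affinity receptor for leukotriene B4, ran from 26.7 to 36.8 CPM over all 12 libraries. It was at 35.8, 35.2 and 36.8 CPM in MV4-11 DMSO and at 29.7, 33.9 and 34.1 CPM in MV4-11 AC220, where the groups did not overlap but the test was not passed (log2 -0.14, 95% interval -0.35 to 0.06, adjusted p = 0.219). In OCI-AML3 it was at 30.7, 33.8 and 32.0 CPM under DMSO and at 34.0, 26.9 and 26.7 CPM under AC220 (log2 -0.14, 95% interval -0.35 to 0.06, adjusted p = 0.449). LTB4R overlaps LTB4R2 on the same strand, so reads of the pair may be divided or lost. LTB4R2 was at 0.772 ± 0.388 CPM in MV4-11 DMSO and 1.33 ± 0.362 CPM in OCI-AML3 DMSO (SD, n = 3).

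The formyl peptide receptors had few counts. FPR1 had 0, 0 and 3 counts in MV4-11 DMSO, 0, 0 and 2 in MV4-11 AC220, and 0 in every OCI-AML3 library. FPR2, which also binds annexin A1 and lipid ligands, had 1, 6 and 1 counts in MV4-11 DMSO, 3, 0 and 0 in MV4-11 AC220, 1, 0 and 0 in OCI-AML3 DMSO and 0, 2 and 0 in OCI-AML3 AC220. For FPR2 in MV4-11 the ratio of AC220 to DMSO was 0.520 with a 95% counting interval of 0.0888 to 2.16, so neither a rise nor a fall inside that interval could be told from no change at this depth. Counting intervals and floors cover counting error only.

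Counted together, 4 of the 8 tested receptors rose in MV4-11, where 31.5% of all tested genes did, and 2 fell, where 26.9% did. AC220 moved 58.3% of all tested genes in one direction or the other in this line, and the counts are no result about the receptors as a set. Their median log2 fold change was 0.40, beside 0.07 over all tested genes. In OCI-AML3, 0 of 8 receptors were called, where 3.95% of all tested genes were (3.44% higher and 0.508% lower). That share rests on 489 genes, a count that leaving out 1 library moved to between 13 without OCI-AML3 DMSO replicate 1 and 1136 without MV4-11 AC220 replicate 1. There, 0 of 8 also had an unadjusted p under 0.05, and DESeq2 and limma-voom called 0 as well. Libraries of both treatments did not overlap for 7 tested receptors in MV4-11 (62.4% of all tested genes) and for 0 in OCI-AML3 (23.9%). The test of the difference between the lines' effects was passed by 4 of 8, all higher in MV4-11, beside 23.0% of all tested genes in that direction, 23.7% in the other and 46.7% in either. C3AR1 is among the 8 in all these counts. With 2 counts in each OCI-AML3 group it could hardly be called there.

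**Figure D2:**
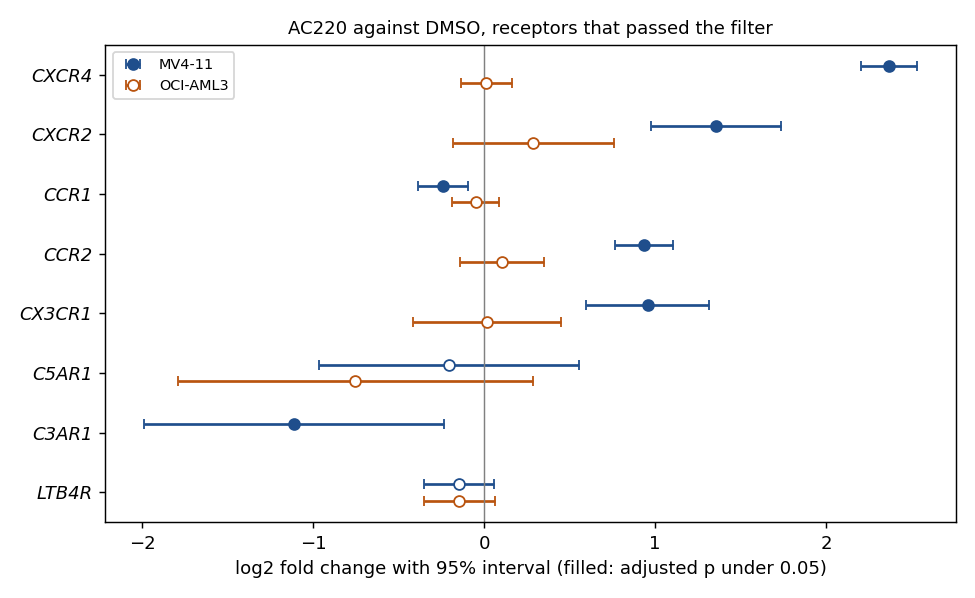
Log2 fold change of AC220 against DMSO with its 95% interval for the tested receptors in MV4-11 (blue) and OCI-AML3 (orange), filled where the adjusted p is under 0.05; C3AR1 in OCI-AML3, with 2 counts in each group, is left out. In MV4-11, CXCR4 stands at 2.37 and CXCR2, CX3CR1 and CCR2 between 0.94 and 1.35, while every interval of OCI-AML3 includes 0.

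The second question was how the lines differed. Under DMSO, MV4-11 held more CCR2, C5AR1, CXCR2 and CX3CR1 and less CXCR4 and CCR1 than OCI-AML3. CCR2 was 6.11-fold higher in MV4-11 (log2 2.61, SE 0.101, adjusted p = 2.16e-19), and CCR1 was 3.17-fold lower (log2 -1.66, SE 0.0701, adjusted p = 1.53e-18). CXCR2 was higher by 0.81 on the log2 scale (SE 0.215, adjusted p = 0.00166) and CX3CR1 by 0.79 (SE 0.195, adjusted p = 0.000826). C5AR1 was higher by 1.15 (SE 0.403, adjusted p = 0.0136), a call that was lost without MV4-11 DMSO replicate 3 (adjusted p = 0.0799) or OCI-AML3 DMSO replicate 3 (adjusted p = 0.0835). C3AR1, with 97 counts in MV4-11 and 2 in OCI-AML3, had a ratio of 40.0 (95% counting interval 10.8 to 335). C3AR1 and C5AR1 passed the filter on low counts through MV4-11, where they are higher, so their direction was favoured by the filter. LTB4R did not pass the test (log2 0.16, 95% interval -0.04 to 0.36, adjusted p = 0.158). These counts of 5 higher and 2 lower among 8 stand beside 32.1% and 33.4% of all tested genes (65.5% in either direction), and the libraries of the lines did not overlap for all 8, as for 71.9% of all tested genes. As C3AR1 and C5AR1 are among the 5, nothing is read from the count.

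Under AC220 the same comparison gave CCR2 at 10.9-fold higher in MV4-11 (log2 3.44, SE 0.0999, adjusted p = 1.04e-22), CXCR2 at 3.67-fold (log2 1.88, adjusted p = 1.16e-09) and CX3CR1 at 3.32-fold (log2 1.73, adjusted p = 2.67e-09). C5AR1 was higher by 1.70 on the log2 scale (SE 0.466, adjusted p = 0.00173). C3AR1, on 32 and 2 counts, had a ratio of 18.1 (95% counting interval 4.61 to 155). CCR1 was 3.62-fold lower in MV4-11 (log2 -1.86, SE 0.0720, adjusted p = 1.06e-19). LTB4R did not pass the test (log2 0.16, 95% interval -0.05 to 0.37, adjusted p = 0.157) but did without OCI-AML3 AC220 replicate 1 (log2 0.27, adjusted p = 0.0228, edgeR). Here 6 of 8 were higher and 1 lower in MV4-11, beside 36.7% and 39.5% of all tested genes (76.2% in either direction), with 7 receptors whose libraries did not overlap (75.5%). C3AR1 and C5AR1 are again among the higher ones, and nothing is read from this count either.

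**Figure D3:**
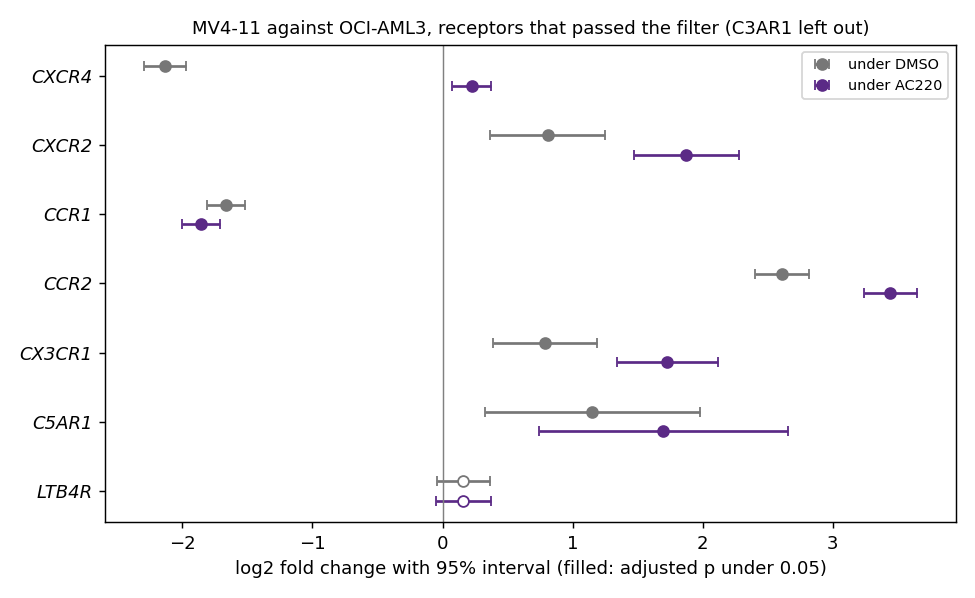
Log2 fold change of MV4-11 against OCI-AML3 with its 95% interval under DMSO (grey) and AC220 (purple), filled where the adjusted p is under 0.05; C3AR1, with 2 counts in each OCI-AML3 group, is left out. CXCR4 lies at -2.13 under DMSO and at 0.22 under AC220, while CCR1 is below 0 and CCR2 above 0 under both.

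Other genes of the pathway were taken from lists of related receptors, ligands and signalling genes. Of 18 other chemokine receptors, 8 were tested, and in MV4-11 AC220 raised 6 and lowered 0 of them, with 2 not called. All list counts for MV4-11 stand beside 31.5% higher and 26.9% lower over all tested genes, and nothing particular to a list is read from them. CXCR3, known from activated T cells and plasmacytoid dendritic cells, rose from 2.05 ± 0.616 to 12.5 ± 2.98 CPM (SD, n = 3, log2 2.60, adjusted p = 2.66e-08). CXCR5, the receptor that leads B cells into follicles, rose from 6.25 ± 0.751 to 21.9 ± 4.61 CPM (SD, n = 3, log2 1.80, adjusted p = 9.75e-11). CCR10 rose by 1.64 (adjusted p = 0.00347), on 31 counts in MV4-11 DMSO and 70 in MV4-11 AC220. It passed the filter on low counts through MV4-11 AC220, where it is higher, so its direction was favoured by the filter. CCR6 rose by 0.86 (adjusted p = 0.00280), though limma applied to the deposited log2 table did not call CCR6 (adjusted p = 0.254). In that smaller table only 2 of the list were called. B cell markers moved with these receptors. The 5 markers summed to 2.44 to 3.53 CPM in MV4-11 DMSO and to 8.43 to 10.4 CPM in MV4-11 AC220, beside 0.578 to 1.17 and 0.208 to 0.647 CPM in OCI-AML3 under DMSO and AC220. PAX5 and CD79A carried that rise, and MS4A1, which encodes CD20, was at 0 in MV4-11 AC220. The part of B-lineage genes in the result was not tested.

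Among 19 further chemoattractant receptors, 9 were tested, of which 4 rose, 3 fell and 2 were not called in MV4-11, where 31.5% of all tested genes rose and 26.9% fell. GPR183, the receptor for oxysterols, rose from 1.42 ± 0.398 to 16.9 ± 1.48 CPM (SD, n = 3, log2 3.58, adjusted p = 7.60e-14). PTAFR, the receptor for platelet-activating factor, rose from 7.78 ± 0.296 to 43.1 ± 4.15 CPM (SD, n = 3, log2 2.46, adjusted p = 1.42e-14), and CYSLTR1, for cysteinyl leukotrienes, by 1.65 (adjusted p = 2.09e-13). PTGDR2, the prostaglandin D2 receptor of eosinophils and basophils, fell by 1.22 (adjusted p = 7.49e-10). The list's median log2 fold change was 0.09 and that of the other chemokine receptors 1.39, beside 0.07 over all tested genes.

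Ligands and the enzymes that make them moved in both directions in MV4-11: of 24 genes, 20 had a row and 11 were tested, with 4 higher, 4 lower and 3 not called (31.5% and 26.9% over all tested genes). MIF, a cytokine that can bind CXCR4 and CXCR2, fell from 462 ± 10.0 to 217 ± 4.43 CPM (SD, n = 3, log2 -1.09, adjusted p = 1.49e-15). ALOX5AP, which presents arachidonic acid for leukotriene synthesis, fell by 1.23 (adjusted p = 3.97e-16), while LTC4S, the leukotriene C4 synthase, rose by 2.35 (adjusted p = 5.58e-11). C5, the precursor of the C5AR1 ligand, rose from 15 ± 0.628 to 47.3 ± 2.39 CPM (SD, n = 3, log2 1.66, adjusted p = 3.60e-13). The ligands CCL2, CXCL12, CX3CL1 and CXCL8 are named here with their values known, as partners of CCR2, CXCR4, CX3CR1 and CXCR2. CCL2 had 55, 62 and 66 counts in MV4-11 DMSO and 7, 0 and 1 in MV4-11 AC220, and fell by 4.01 on the log2 scale (adjusted p = 1.82e-07), so that CCR2 rose where its ligand fell. CXCL12 had 0 counts in MV4-11 and in OCI-AML3 DMSO and 2 in OCI-AML3 AC220, and CX3CL1 had 0 to 2 counts per group. CXCL8 fell by 1.72 on the log2 scale in MV4-11 (adjusted p = 0.00242), on 92 counts under DMSO and 20 under AC220. Of the list's other CXCR2 ligands, CXCL1 had 0 counts in MV4-11, and CXCL2, CXCL3, CXCL5 and PPBP were not tested. CCL3, CCL4, CCL5 and CCL23 were not analysed here.

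Downstream of the receptors, 9 of 23 tested genes of G protein coupling and chemotactic signalling rose in MV4-11, 4 fell and 10 were not called, with a median of 0.07. PREX1, an exchange factor that activates Rac on G beta-gamma and PIP3, rose from 39.6 ± 4.23 to 129.8 ± 14.1 CPM (SD, n = 3, log2 1.71, adjusted p = 1.13e-09). PLCB2, the phospholipase C-beta of myeloid cells, rose by 1.139 (adjusted p = 5.37e-11), GNAI2, the main Gi alpha subunit of leukocytes, by 0.63 (adjusted p = 6.91e-10) and WAS, an actin nucleation promoter, by 0.73 (adjusted p = 2.81e-09). Of 19 tested genes of desensitisation and turnover, 8 rose, 7 fell and 4 were not called, with a median of 0.16, beside 31.5% and 26.9% of all tested genes and a median of 0.07. RGS16, which ends Gi signalling by speeding GTP hydrolysis, had the smallest adjusted p of its list, falling from 136.7 ± 11.8 to 2.48 ± 0.786 CPM (SD, n = 3, log2 -5.76, adjusted p = 7.71e-21). GRK6, a kinase that phosphorylates CXCR4, fell by 1.11 (adjusted p = 5.85e-11), and ARRB2, the arrestin that uncouples and internalises such receptors, fell by 0.69 (adjusted p = 3.30e-08). The gene CPM, carboxypeptidase M, which trims peptide ligands at the cell surface, rose by 1.84 (adjusted p = 2.88e-17).

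In OCI-AML3 the test was passed by 1 of 11 tested ligand genes, 2 of 23 signalling genes and 0 of the other 3 lists, beside 3.95% of all tested genes. LTA4H, the enzyme that makes leukotriene B4, rose by 0.36 (adjusted p = 0.0156), CDC42 by 0.32 (adjusted p = 0.0153) and PREX1 by 0.49 (adjusted p = 0.0424). All 3 calls were lost when limma was applied to the deposited log2 table (adjusted p = 0.0580, 0.0518 and 0.0664) and in edgeR without OCI-AML3 DMSO replicate 1 (0.127, 0.124 and 0.178). They were also lost without OCI-AML3 DMSO replicate 2 (adjusted p = 0.147, 0.149 and 0.209, edgeR) and without OCI-AML3 AC220 replicate 3 (0.105, 0.130 and 0.211). Without OCI-AML3 AC220 replicate 2 the calls of LTA4H and PREX1 were lost (adjusted p = 0.0716 for both, edgeR), and that of PREX1 also without MV4-11 DMSO replicate 2 (0.0656) or MV4-11 AC220 replicate 2 (0.0742). Other genes were just short of the threshold. CXCL1, a CXCR2 ligand, went from 14.1 ± 1.02 to 20.1 ± 1.76 CPM (SD, n = 3, log2 0.51, adjusted p = 0.0504) and was called under 10 of 20 alternatives, among them DESeq2 (adjusted p = 0.0465) and limma-voom (adjusted p = 0.0134). CYSLTR1 (log2 0.34, adjusted p = 0.0533) was called under 5 of them and RGS16 (log2 0.59, adjusted p = 0.0699) under 4.

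**Figure D4:**
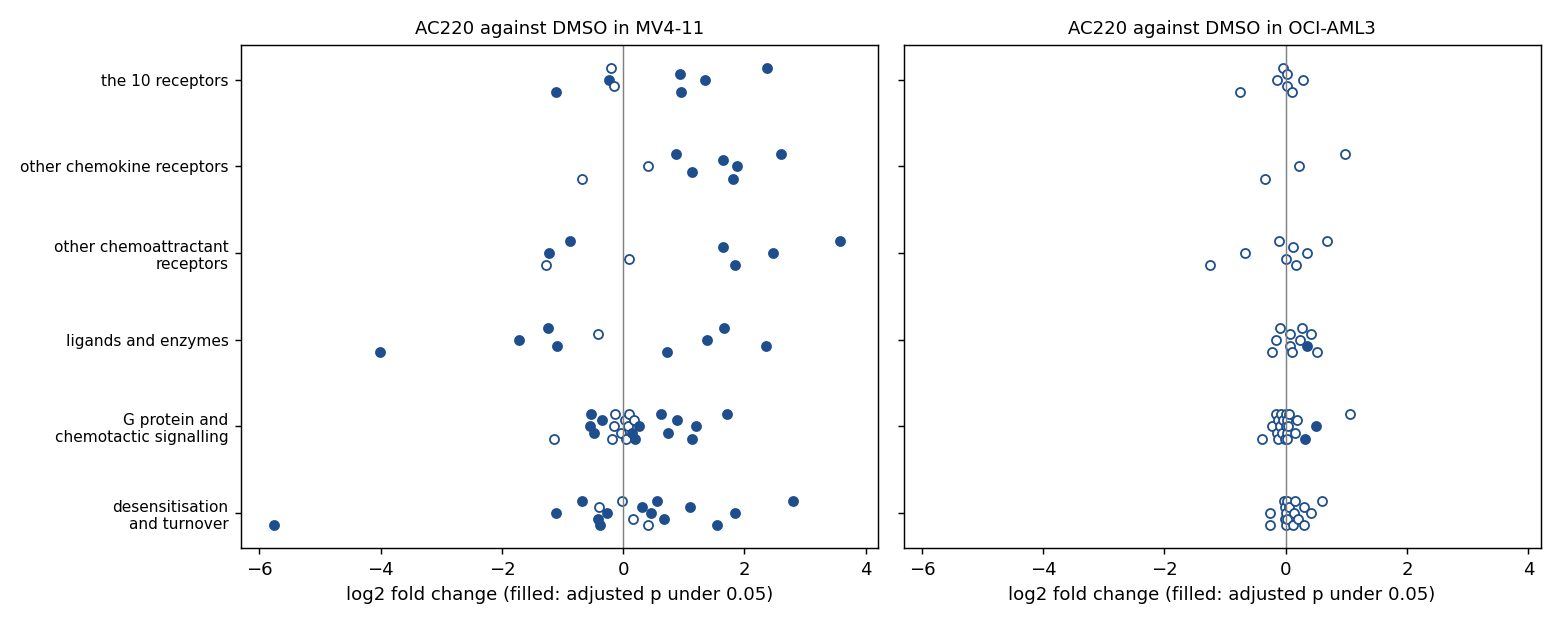
Log2 fold change of AC220 against DMSO for the tested genes of each list in MV4-11 (left) and OCI-AML3 (right), 1 point per gene, filled where the adjusted p is under 0.05; genes with 3 or fewer counts in a group being compared are left out, and vertical scatter within a row only separates points. In MV4-11 the points spread from RGS16 at -5.76 to GPR183 at 3.58, while in OCI-AML3 the 3 filled points lie at 0.32, 0.36 and 0.49.

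The lines also differed in these lists under DMSO. CCR6 and CCRL2 had 0 counts in OCI-AML3 and were at least 60.7-fold and at least 62.3-fold higher in MV4-11, with the 0 set to that floor of 3 counts for the whole group. Both genes passed the filter on low counts through MV4-11, where they are higher, so their direction was favoured by the filter. PTAFR was higher in MV4-11 by 2.27 (adjusted p = 1.72e-10) and CYSLTR1 lower by a log2 fold change of -1.15 (adjusted p = 3.24e-10). LTA4H was 4.06-fold lower in MV4-11 (log2 -2.02, adjusted p = 3.20e-18) and ALOX5AP 2.74-fold higher (log2 1.45, adjusted p = 5.11e-18). PIK3CG, the catalytic subunit of phosphoinositide 3-kinase gamma, was 5.68-fold lower (log2 -2.51, adjusted p = 9.17e-17), and GNA15, a Gq-class alpha subunit of blood cells, 4.18-fold higher (log2 2.06, adjusted p = 4.75e-16). RGS16 was 35.0-fold higher in MV4-11 (log2 5.13, adjusted p = 8.08e-21) and RGS18, a regulator known from platelets, 14.1-fold lower (log2 -3.82, adjusted p = 2.98e-17).

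CXCR4 was low in MV4-11 DMSO and high in the other 3 groups. Across the 12 libraries Pearson's r of log2 CPM with CXCR4 ran from -0.67 for C3AR1 to 0.41 for CCR1, and Spearman's rho from -0.48 for LTB4R to 0.27 for CCR2. The measures differed in sign for CCR1 (rho -0.24) and CCR2 (r -0.30). Among 12341 genes compared in the same 12 libraries, those with the highest Pearson correlation were CES1 (0.996), PRCP (0.993), RCAN3 (0.992), SAMHD1 (0.989) and TENT5A (0.987). Spearman's rho was 0.90, 0.71, 0.89, 0.95 and 0.67 in the same order. The points share line and treatment, and the values are a description of these libraries. CES1, a carboxylesterase with a near-identical copy that makes its count uncertain, went from 14.3 ± 0.708 CPM in MV4-11 DMSO to 213 ± 27.5 in MV4-11 AC220, beside 182 ± 3.25 in OCI-AML3 DMSO (SD, n = 3). SAMHD1, a dNTP hydrolase of myeloid cells, was at 65.2 ± 3.65, 224 ± 12.9 and 182 ± 11.6 CPM in the same 3 groups (SD, n = 3). PRCP, a lysosomal carboxypeptidase, was at 15.01 ± 0.435 CPM in MV4-11 DMSO and at 54.3 ± 3.28 CPM in MV4-11 AC220 (SD, n = 3).

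**Figure D5:**
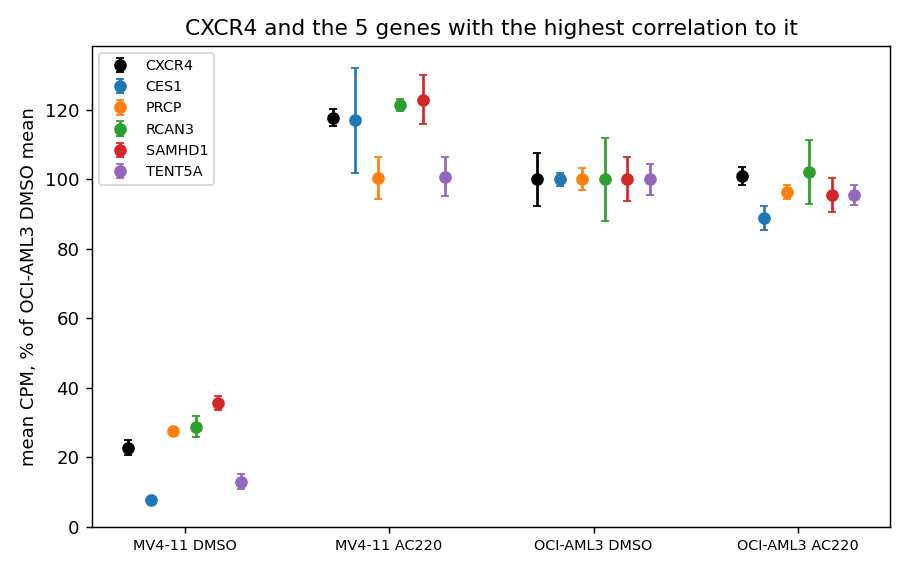
Mean level of CXCR4 and of the 5 genes with the highest correlation to it, as a percentage of each gene's mean in OCI-AML3 DMSO, with bars for the SD (n = 3). All 6 are lowest in MV4-11 DMSO, where CXCR4 is at 27.03 CPM, and near their OCI-AML3 level in MV4-11 AC220, where it is at 139.6 CPM.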

How the data were processed

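The series measured RNA in 12 libraries of MV4-11 and OCI-AML3 cells, made with the QuantSeq 3' kit per the labels' protocols, so that a count does not grow with gene length. The authors deposited a table of raw counts by gene symbol and, for 11075 genes, normalised log2 values, a table with 6 of the 10 receptors. Per the submitters' processing notes, the tools included HISAT2 2.0.4, featureCounts, cutadapt 1.9.1 and limma 3.42.2, with the build hg19. The annotation, the strand setting and the handling of reads with several positions are not given in the sources used here. Counts of a row with no symbol (0.00343% to 0.00503% per library) were dropped, and 19127 of 19504 symbols were found in the reference name table.

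Counts were filtered with filterByExpr (minimum count 10) on the 4 groups, which left 12392 genes, and scaled by TMM (factors 0.941 to 1.03). edgeR 4.0.16 in R 4.3.3 fitted a mean per group to all 12 libraries with robust quasi-likelihood, 8 residual degrees of freedom and a common biological coefficient of variation of 8.28%. Calls needed a Benjamini-Hochberg adjusted p under 0.05 over all tested genes. Per group, totals were 15041493 to 16918761 counts in MV4-11 DMSO, 11419454 to 13328968 in MV4-11 AC220, 13013381 to 13455082 in OCI-AML3 DMSO and 10877198 to 14458640 in OCI-AML3 AC220. No pair of libraries was identical, and each was counted as a replicate.

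The receptors and gene lists were chosen with earlier results of these data known. Named list genes were the 4 with the smallest adjusted p for AC220 in MV4-11, and the 2 with the smallest for AC220 in OCI-AML3 (of those not called, CXCL1, CYSLTR1 and RGS16 are given) and for the lines under DMSO. Genes like CXCR4 were the 5 with the highest Pearson correlation of log2 CPM, leaving out clones, pseudogenes and Y-linked genes. Alternatives were median-ratio scaling, other filters, DESeq2 1.42.0, limma-voom and limma 3.58.1 on the deposited values, leaving out each library, fitting the compared libraries alone, and a replicate block. Neighbouring genes were read from a GENCODE annotation of another build, so gene coordinates are not printed.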

Additional observations from a re-analysis of the deposited data

Results flagged for a closer look

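For 4 receptors the test of the difference between the lines was passed: the AC220 effect in MV4-11 exceeded that in OCI-AML3, on the log2 scale, by 2.35 for CXCR4 (adjusted p = 5.24e-17), 1.07 for CXCR2 (adjusted p = 0.00395), 0.83 for CCR2 (adjusted p = 2.49e-05) and 0.94 for CX3CR1 (adjusted p = 0.00590), all from edgeR's quasi-likelihood test. The adjusted p over the 19 alternatives of this comparison stayed under 0.05 for all 4. Effects ran from 2.28 to 2.47 for CXCR4, 0.87 to 1.22 for CXCR2, 0.75 to 1.01 for CCR2 and 0.74 to 1.19 for CX3CR1. In all 4 cases every MV4-11 AC220 library was above every MV4-11 DMSO library, while the OCI-AML3 groups overlapped.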

How the results depend on the processing

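Under all 20 alternatives the calls and directions of CXCR4, CXCR2, CCR1, CCR2 and CX3CR1 for AC220 in MV4-11 were those reported, as far as the setting held the gene. Leaving out 1 library gave 5 to 6 receptors called for AC220 in MV4-11, 0 to 0 in OCI-AML3, 4 to 5 for the difference, and 6 to 7 and 7 to 8 for the lines under DMSO and AC220. The numbers of all genes called ran from 6619 to 7394, from 13 to 1136, from 5308 to 6130, from 7562 to 8424 and from 9150 to 9580 in the same order.

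The count for AC220 in OCI-AML3, 489, depended most on the setting: 836 without a filter, 746 with DESeq2 and 122 with limma on the deposited values, and 13, 15, 116 and 22 without OCI-AML3 DMSO replicates 1 and 2 and AC220 replicates 2 and 3. It was 998 and 944 without OCI-AML3 DMSO replicate 3 and AC220 replicate 1, and 1136 without MV4-11 AC220 replicate 1. The cause was not tested. Median-ratio scaling gave 363 higher and 126 lower there in place of 426 and 63. In MV4-11 the split of 3899 higher and 3329 lower became 3431 and 3619 in a fit of its libraries alone, and 3248 and 3447 without MV4-11 AC220 replicate 3.

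Signs turned only for uncalled effects near 0. For AC220 in OCI-AML3, CXCR4 gave -0.0148 with median-ratio scaling, -0.0145 with DESeq2, -0.00179 with limma on the deposited values and -0.0484 to 0.0525 without 1 library. CX3CR1 gave -0.0107 with median-ratio scaling, -0.0105 with DESeq2 and -0.23 to 0.21 without 1 library. The difference for LTB4R, -4.03e-05, was 0.0346 with median-ratio scaling, 0.00588 with the stricter filter, 0.0347 with DESeq2, 0.00969 with limma-voom, 0.0820 with limma on the deposited values, 0.000335 with the replicate block and -0.0629 to 0.11 without 1 library.

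Shared replicate numbers gave no clear sign of pairing, which so few libraries cannot exclude. Correlations of deviations in 18 same-numbered pairs ran from -0.18 to 0.18, 1 of them over 0.1, and 5 of 12 libraries were closest to their own number. Between DMSO and AC220, replicates 1 to 3 gave 0.084, 0.049 and 0.18 in OCI-AML3 and -0.12, -0.094 and -0.080 in MV4-11. With the replicate block 6, 0, 4, 7 and 7 receptors were called in the 5 comparisons, and 7080, 381, 5626, 8008 and 9346 of all genes. Depth limits FPR1, FPR2 and C3AR1 in OCI-AML3, which lie at or near the floor of 3 counts over a group, and leaves C5AR1 with wide intervals.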
